A study of Mus musculus with 12 samples.

Results

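The genes of the epidermal differentiation complex were followed from NOTCH1 leukemia through colonies of 2 kinds to iPS cells. The complex is a run of neighbouring genes on mouse chromosome 3 that build the outer layer of the skin. Members were chosen by symbol: all S100a genes except S100a8 and S100a9, all Sprr and Lce genes, and Ivl, Lor, Flg, Flg2, Rptn, Tchh, Crnn and Hrnr. Each had to be the only gene symbol of a probe set in the platform annotation, and the brightest such probe set, by its mean over all 12 arrays, stood for the gene. This gave 52 members of 22180 measured genes: 14 S100, 12 small proline-rich (SPRR) and 18 late cornified envelope (LCE) genes, the precursors Ivl and Lor, and 6 genes of the fused S100 type. All 52 were found in RefSeq, 51 of them on chromosome 3. The remaining member, S100a11-ps, is a pseudogene on chromosome 12, and Sprr2g and Sprr2j-ps are also annotated as pseudogenes.

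RNA was measured on 12 Affymetrix arrays, 3 in each of 4 groups. The groups were leukemia cells from the spleen, colonies made from the leukemia cells that were GFP+ (partially reprogrammed) or GFP- (reprogrammed), and established iPS cells titled Notch-1 ips. Every array, leukemia included, carries the mouse genotype R26rtTA;Col1a12lox-4F2A, an rtTA activator at Rosa26 with an inducible reprogramming cassette at Col1a1. The labels do not say what GFP marks, and the sources used here give no ages. A single leukemia number stands in all 3 leukemia titles. Arrays of a group are titled biological replicates, but no label states that they came from different animals or cultures. The p-values therefore measure only the spread between these arrays, which may be technical.

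In the epidermis, keratinocytes leaving the basal layer lay down a cornified envelope beneath the plasma membrane. Involucrin (Ivl), loricrin (Lor), SPRR and LCE proteins are cross-linked into it by transglutaminases. Filaggrin and its fused S100-type relatives bind keratin filaments or are embedded in the envelope, and the S100 proteins are small calcium-binding proteins, several of them expressed well beyond the skin.

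Marker levels described the arrays as follows. The mean log2 level of 6 T cell markers was 10.85 to 10.94 in leukemia and at most 7.44 elsewhere, and the labelled leukemia held its defining T cell genes. The mean of 6 pluripotency markers was 5.45 to 5.72 in leukemia and 9.17 to 9.26 in iPS cells. It was 7.86, 9.20 and 7.40 on GFP-positive replicates 1 to 3 and 6.41, 8.96 and 9.28 on GFP-negative replicates 1 to 3. GFP-negative replicate 1 thus stood apart from the other GFP-negative arrays, although labelled reprogrammed like them, and GFP-positive replicate 3 carried a macrophage marker mean of 9.18 against at most 8.02 on every other array. Calls of the genes described that were lost without either array are given as such. In whole colonies, fewer cells of a type and less RNA per cell cannot be told apart.

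The start regions of 5 members are shown as a description. Ivl, Sprr1a, Lor and Sprr2d rose in GFP-positive colonies. Sprr2e did not pass the test, and its start region closely resembles that of Sprr2d. Any part of the start regions in the levels was not tested. Each line is the 250 bases before the RefSeq start, 5′ to 3′ on the gene's strand (GRCm38.p6), with the AP-1 motif TGANTCA and the TATA motif TATAAA in capitals. Ivl lies at chr3:92573736-92573985, Lor at chr3:92083143-92083392 and Sprr1a at chr3:92485882-92486131, all on the minus strand. Sprr2d at chr3:92338890-92339139 and Sprr2e at chr3:92351893-92352142 are on the plus strand.
Ivl: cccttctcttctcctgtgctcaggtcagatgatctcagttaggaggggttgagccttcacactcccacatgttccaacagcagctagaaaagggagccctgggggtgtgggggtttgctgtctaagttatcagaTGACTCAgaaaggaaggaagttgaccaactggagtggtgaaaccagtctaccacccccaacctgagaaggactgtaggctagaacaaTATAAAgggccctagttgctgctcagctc
Sprr1a: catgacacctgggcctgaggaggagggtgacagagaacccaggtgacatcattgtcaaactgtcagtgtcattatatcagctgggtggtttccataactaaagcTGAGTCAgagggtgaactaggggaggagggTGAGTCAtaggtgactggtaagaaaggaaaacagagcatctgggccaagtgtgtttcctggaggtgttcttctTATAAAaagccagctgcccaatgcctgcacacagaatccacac
Lor: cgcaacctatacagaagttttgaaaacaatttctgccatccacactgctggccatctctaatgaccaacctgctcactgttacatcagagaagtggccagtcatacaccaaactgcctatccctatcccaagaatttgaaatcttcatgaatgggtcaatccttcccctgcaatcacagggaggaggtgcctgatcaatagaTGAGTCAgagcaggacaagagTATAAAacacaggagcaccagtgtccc
Sprr2d: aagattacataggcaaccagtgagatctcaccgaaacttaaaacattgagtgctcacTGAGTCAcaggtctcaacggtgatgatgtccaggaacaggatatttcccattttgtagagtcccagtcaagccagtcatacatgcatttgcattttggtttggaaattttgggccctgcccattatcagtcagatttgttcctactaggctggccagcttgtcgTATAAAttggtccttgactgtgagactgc
Sprr2e: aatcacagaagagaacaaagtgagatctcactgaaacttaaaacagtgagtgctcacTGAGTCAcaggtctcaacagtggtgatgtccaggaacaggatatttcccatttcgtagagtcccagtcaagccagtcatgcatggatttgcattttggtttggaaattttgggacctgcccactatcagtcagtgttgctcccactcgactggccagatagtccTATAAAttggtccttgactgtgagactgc
Counted from the first base of the motif to the start, the AP-1 motif lay 116 bases before the start of Ivl, 146 and 116 before Sprr1a, 48 before Lor and 193 before both Sprr2d and Sprr2e. The TATA motif lay 29 bases before Ivl, Sprr2d and Sprr2e, 27 before Lor and 43 before Sprr1a. The Sprr2d and Sprr2e stretches were identical at 225 of 252 aligned columns (89.3%). A match is a run of letters and not a measured binding site.

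Across the family, TGANTCA on either strand was found in 17 of 49 member windows (34.7%), against 6.75% of all 32851 windows of the same length in the RefSeq table. TATAAA was found in 42.9% of member windows and 12.4% of all windows. The other motifs searched were CCACCC, in 36.7% of member windows and 28.1% of all windows, and GGAAGT, in 26.5% and 19.7%. Only 45 of the 52 members had a window, and SPRR2 copies share their sequence, so windows are not independent. Called members held the AP-1 motif in 6 of 11 windows and the others in 11 of 38. The fused S100-type genes Crnn, Flg, Flg2 and Rptn, which passed no test, held it as well.

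GFP-positive colonies had higher levels of 14 members than the leukemia, and no member was lower. A member was called when its Benjamini-Hochberg adjusted p, over all 22180 genes in limma, was under 0.05. Of all genes, 9.6% were called higher in this comparison and 12.3% lower, so 14 of 52 stands beside that background. The 14 were 7 of 14 S100 genes, 2 of 12 SPRR genes, 2 of 18 LCE genes, both Ivl and Lor, and Tchh alone among the 6 fused S100-type genes. The median log2 difference over all members was 0.36, against -0.04 over all genes. The family was picked with results of these arrays in view, so these counts are no independent evidence of its direction. Without GFP-positive replicate 3, 9 of the 14 were called higher, where 9.56% of all genes were, and 1 member lower, Lce1l by -0.62 ± 0.16 (adjusted p = 0.0203). With cyclic loess in place of the deposited scaling the same number of members was called, while higher calls went from 43.9% to 52.6% of all calls. In the heat map of all arrays, called members lay at several places along the locus. Some were next to each other among the measured members, S100a14 beside S100a16 and Tchh beside S100a11 and S100a10, whereas Sprr1a stood between Sprr3 and Sprr4, which were not called.

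**Figure D1:**
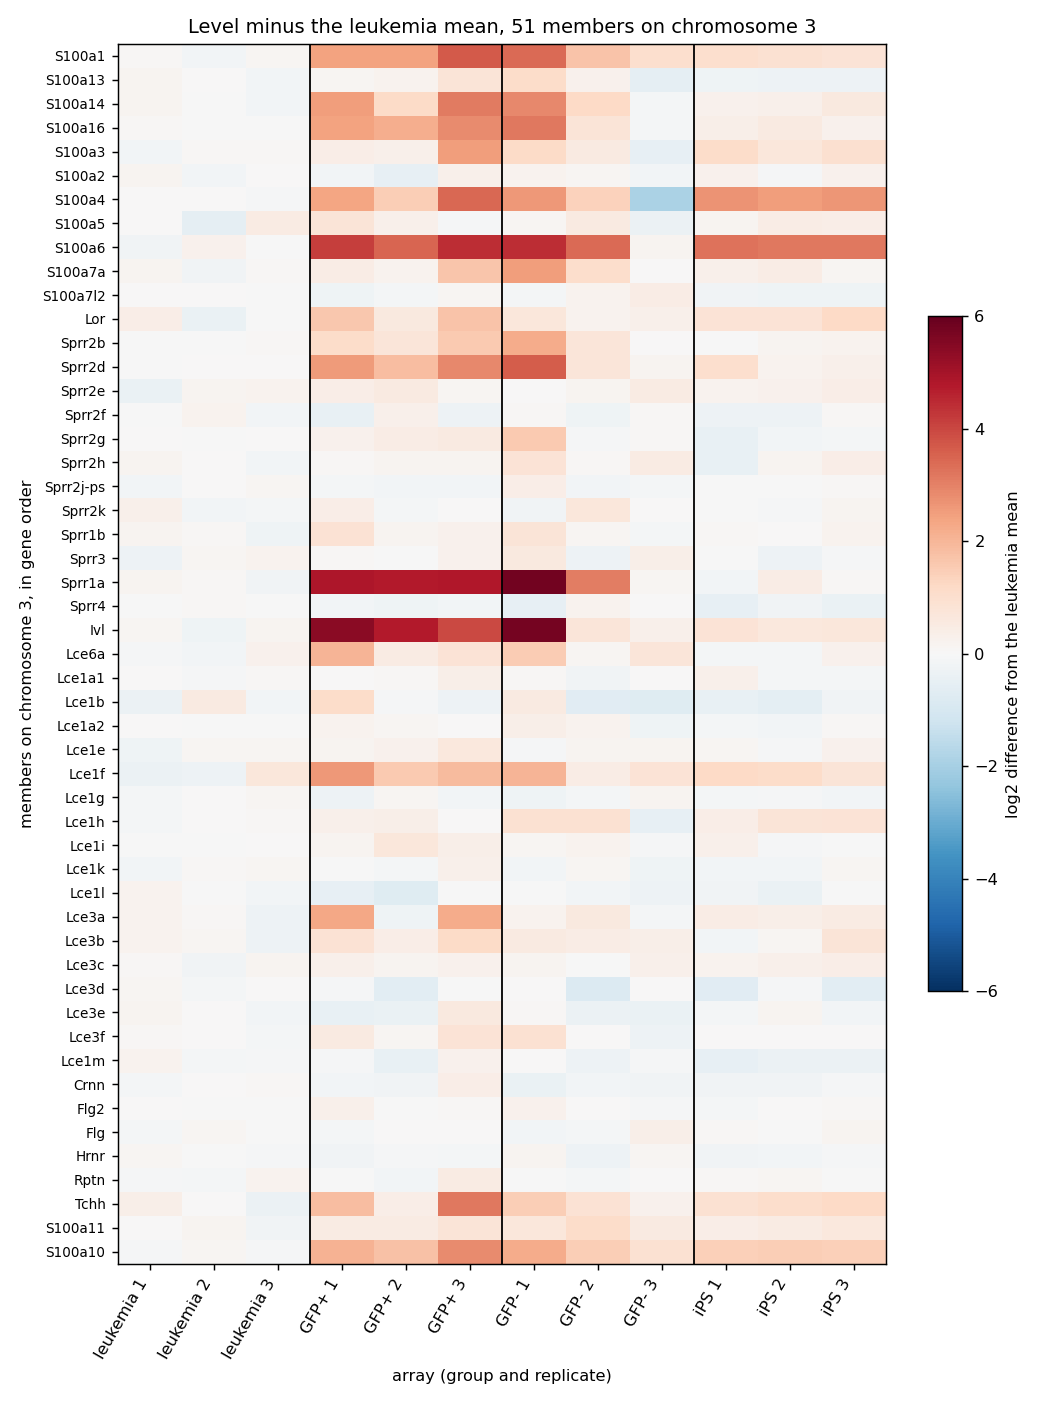
Log2 level on each array minus the leukemia mean, for the 51 members on chromosome 3 in gene order (rows) and the 12 arrays (columns); red is higher and blue lower. The strongest red lies in Sprr1a, Ivl and S100a6 across GFP-positive arrays and in GFP-negative replicate 1, while most LCE and fused S100-type rows stay pale throughout.

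Ivl, the scaffold onto which other envelope proteins are cross-linked, read 5.66, 5.26 and 5.69 in leukemia and 10.96, 10.31 and 9.49 in GFP-positive colonies. GFP-negative colonies read 11.28, 6.29 and 5.85, and iPS cells 6.34, 6.15 and 6.23. All GFP-positive arrays lay far above leukemia, whereas only replicate 1 of the GFP-negative arrays did so. The difference between GFP-positive colonies and leukemia was 4.71 ± 1.12 (log2 ± SE, n = 3 arrays each, 26.3-fold, limma adjusted p = 0.0118). Between iPS cells and GFP-positive colonies it was -4.01 ± 1.12 (adjusted p = 0.0464). Against leukemia, neither GFP-negative colonies (2.27 ± 1.12, adjusted p = 0.19) nor iPS cells (0.70 ± 1.12, adjusted p = 0.726) passed the test. Every iPS array nevertheless lay above every leukemia array. The fit pools the spread of all groups, and the SD of Ivl was 0.10 in iPS cells, 0.24 in leukemia and 3.01 in GFP-negative colonies.

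Lor, the most abundant envelope protein of mature epidermis, moved less. Its leukemia arrays read 6.14, 5.31 and 5.71, the GFP-positive arrays 7.33, 6.31 and 7.42, the GFP-negative arrays 6.40, 5.95 and 6.04, and the iPS arrays 6.52, 6.55 and 6.91. GFP-positive replicate 2 lay only just above the highest leukemia array. Lor was higher by 1.30 ± 0.30 in GFP-positive colonies (2.46-fold, limma adjusted p = 0.0102) and by 0.94 ± 0.30 in iPS cells (adjusted p = 0.0433). The call in iPS cells was lost when leukemia replicate 2 or 3, or any iPS array, was left out, with an adjusted p of up to 0.161.

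Sprr1a, an SPRR cross-bridge protein also known as a stress-induced gene, was high and even across GFP-positive colonies. It read 5.38, 5.30 and 5.0 in leukemia against 10.06, 9.97 and 10.02 in GFP-positive colonies. GFP-negative colonies read 11.0, 8.28 and 5.34, so that replicate 1 exceeded every GFP-positive array while replicate 3 lay within the leukemia range. The iPS arrays read 5.04, 5.66 and 5.28 and overlapped leukemia. The GFP-positive difference from leukemia was 4.79 ± 1.02 (27.7-fold, limma adjusted p = 0.0069), and iPS cells were lower than GFP-positive colonies by -4.69 ± 1.02 (adjusted p = 0.0209). For GFP-negative colonies against leukemia it was 2.98 ± 1.02 (adjusted p = 0.0642), and 4.41 ± 0.59 (adjusted p = 0.000627) without GFP-negative replicate 3. That array holds the lowest value of its group, so its removal raises the difference by construction. Without GFP-negative replicate 1, Sprr1a was not called.

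**Figure D2:**
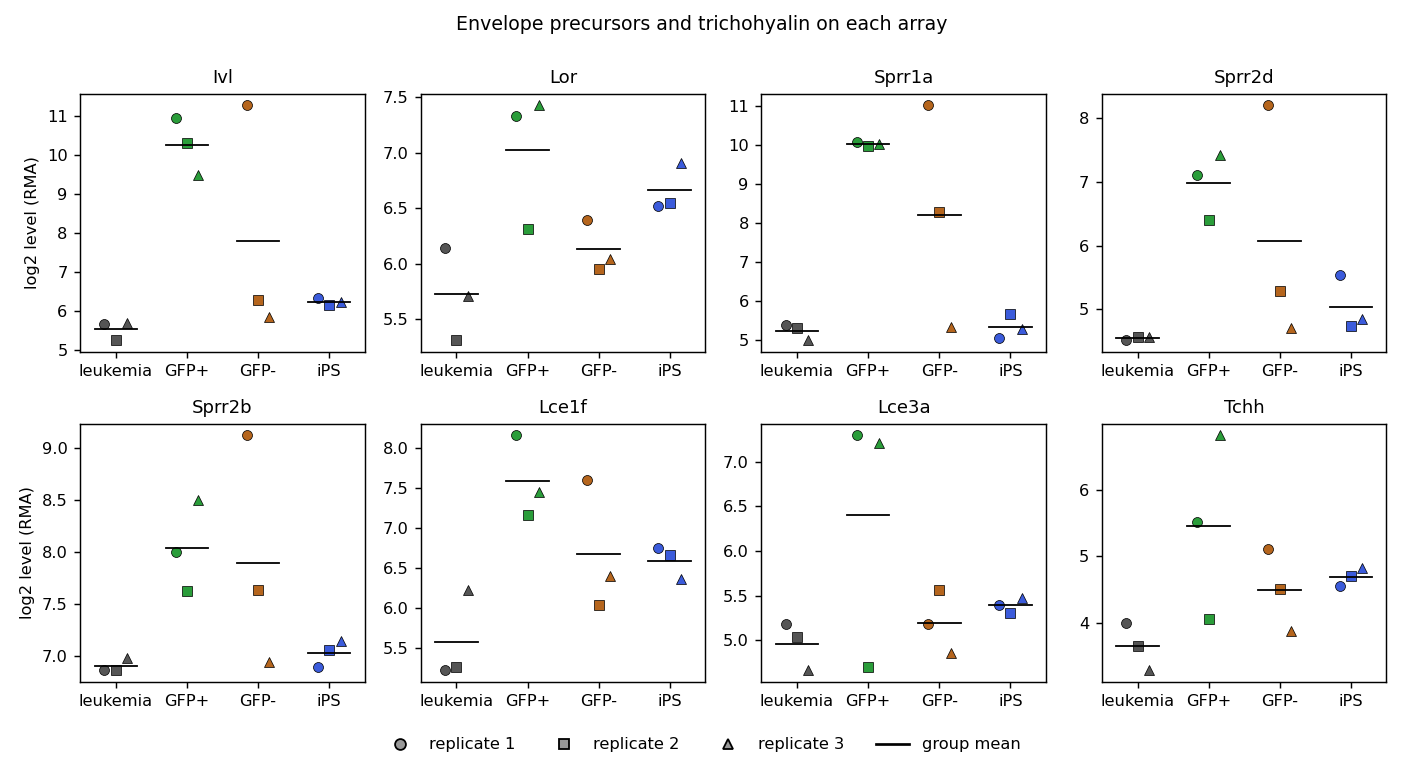
Log2 RMA level (vertical axis, its range set for each gene) of 8 envelope and hair-follicle genes on each array, with symbols for replicates and a line for the group mean. In Ivl, Sprr1a, Sprr2d and Sprr2b, GFP-negative replicate 1 sits above all GFP-positive arrays and replicate 3 near the leukemia arrays.

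Among the SPRR2 genes, Sprr2d read 4.52, 4.56 and 4.56 in leukemia and 7.11, 6.40 and 7.42 in GFP-positive colonies. Its GFP-negative arrays read 8.19, 5.29 and 4.72 and its iPS arrays 5.54, 4.74 and 4.85. The GFP-positive arrays were all above leukemia and above iPS cells. The GFP-positive difference was 2.43 ± 0.71 (5.38-fold, limma adjusted p = 0.0335). It lost the call without any 1 of the leukemia arrays, GFP-positive replicate 1 or GFP-positive replicate 3, with an adjusted p of up to 0.0896 and differences of at least 2.21.

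Sprr2b read 6.86, 6.87 and 6.98 in leukemia, 8.0, 7.62 and 8.49 in GFP-positive colonies, 9.12, 7.63 and 6.94 in GFP-negative colonies and 6.89, 7.05 and 7.14 in iPS cells. The GFP-positive and leukemia arrays did not overlap, but the difference of 1.14 ± 0.44 was not called (limma adjusted p = 0.0928). In a fit of those 6 arrays alone it was called (adjusted p = 0.0118). Sprr2e, whose start region is shown above beside that of Sprr2d, read 4.88, 5.45 and 5.46 in leukemia and 5.68, 5.81 and 5.40 in GFP-positive colonies, which overlap. Its difference of 0.37 ± 0.18 was not called (adjusted p = 0.187). The difference between Sprr2d and Sprr2e was not itself tested. SPRR2 genes are near-identical copies, so a probe set may read transcripts of other copies, which was not tested.

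Probe sets naming several members were left out by the rule. They were read in a fit of all 41345 probe sets, added after their values were seen. A probe set shared by Sprr2a1, Sprr2a2, Sprr2a3 and Sprr2b read 6.98, 6.89 and 6.85 in leukemia and 11.40, 10.31 and 11.23 in GFP-positive colonies. Its GFP-negative arrays read 11.94, 10.60 and 7.0 and its iPS arrays 6.88, 6.87 and 6.91. Replicates 1 and 2 of the GFP-negative colonies thus lay with the GFP-positive arrays and replicate 3 with leukemia and iPS cells. The difference of GFP-positive colonies from leukemia was 4.08 ± 0.94 (limma adjusted p = 0.0141), where 6.05% of all probe sets were called higher. That of iPS cells from GFP-positive colonies was -4.10 ± 0.94 (adjusted p = 0.0322), where 2.34% were called lower. A second Sprr2a1, Sprr2a2 and Sprr2a3 probe set was higher in GFP-positive colonies by 3.81 ± 1.07 (adjusted p = 0.0348). A further pair of probe sets for the same genes, with identical values, gave 0.75 ± 0.32 (adjusted p = 0.149). The value of 4.08 was above that of every single-symbol SPRR2 member, and no single SPRR2A gene can be named from it.

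**Figure D3:**
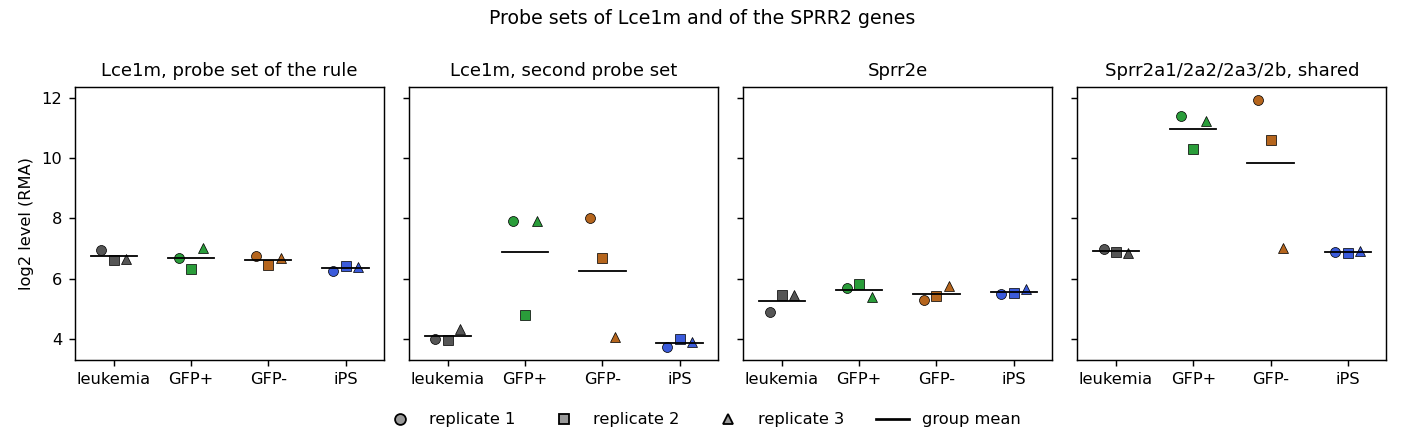
Log2 RMA level on each array, on 1 shared vertical axis, of both probe sets of Lce1m, of Sprr2e and of the probe set shared by SPRR2A genes and Sprr2b; symbols are replicates and lines group means. The panels of the brighter Lce1m probe set and of Sprr2e stay flat, while in the other two most colony arrays lie above leukemia and iPS cells.

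Lce1m, a late envelope gene, differed by probe set. The brighter probe set, used by the rule, ranged from 6.25 to 7.02 over all 12 arrays. The dimmer probe set read 3.99, 3.97 and 4.33 in leukemia and 7.90, 4.79 and 7.92 in GFP-positive colonies. It read 8.01, 6.68 and 4.07 in GFP-negative colonies and 3.73, 3.99 and 3.91 in iPS cells. The dimmer probe set was high on 4 of the 6 colony arrays, a pattern absent from the brighter one. Its GFP-positive difference of 2.78 ± 0.97 was not called (limma adjusted p = 0.0818, all probe sets).

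Of the 18 LCE genes, Lce1f and Lce3b were called in GFP-positive colonies. Lce1f read 5.23, 5.26 and 6.23 in leukemia, 8.16, 7.16 and 7.45 in GFP-positive colonies, 7.60, 6.04 and 6.40 in GFP-negative colonies and 6.76, 6.67 and 6.36 in iPS cells. The GFP-positive arrays were the highest apart from GFP-negative replicate 1, and the difference was 2.02 ± 0.41 (4.06-fold, limma adjusted p = 0.00549). Lce3b, of the LCE3 group known for induction at skin injury, read 3.99, 3.89 and 3.46 in leukemia and 4.67, 4.18 and 4.91 in GFP-positive colonies. Its GFP-negative arrays read 4.30, 4.22 and 4.13 and its iPS arrays 3.63, 3.90 and 4.54. All of these are low values, and the difference of 0.80 ± 0.25 (adjusted p = 0.0421) lost its call without any 1 leukemia array, GFP-positive replicate 1 or GFP-positive replicate 3 (up to 0.153).

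Lce3a, of the same group, was split within the GFP-positive colonies. Replicates 1 and 3 read 7.29 and 7.21, and replicate 2 read 4.71. Leukemia read 5.18, 5.04 and 4.67, GFP-negative colonies 5.18, 5.56 and 4.85, and iPS cells 5.39, 5.30 and 5.48. The high values stood on 2 GFP-positive arrays and on no other array. The GFP-positive difference from leukemia of 1.44 ± 0.55 was not called (limma adjusted p = 0.0933). Without GFP-positive replicate 2 it was 2.29 ± 0.21 (adjusted p = 7.16e-05). That array holds the low value, so this refit restates the split and is no further evidence of a difference.

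Trichohyalin (Tchh), a filament-associated protein of the hair follicle's inner root sheath, was the only fused S100-type member called. It read 3.99, 3.65 and 3.29 in leukemia, 5.51, 4.05 and 6.81 in GFP-positive colonies, 5.10, 4.50 and 3.88 in GFP-negative colonies and 4.55, 4.70 and 4.82 in iPS cells. GFP-positive replicate 2 lay close to leukemia and replicate 3 far above it. The difference was 1.81 ± 0.56 (3.52-fold, limma adjusted p = 0.0422), and 1.14 without GFP-positive replicate 3 (adjusted p = 0.0991). The call was also lost without any 1 leukemia array or GFP-positive replicate 1 (up to 0.133). It was lost as well in the fit of the 6 arrays compared and with replicate numbers as a block. Profilaggrin (Flg), the source of the filament-aggregating protein of mature epidermis, read 5.37, 5.61 and 5.45 in leukemia and 5.35, 5.51 and 5.52 in GFP-positive colonies, with overlapping values. The 5 other fused S100-type genes, Flg included, had group means that differed by at most 0.30, and their smallest adjusted p in any comparison was 0.27.

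S100 genes had the most calls, and 3 of them were higher than leukemia in every other group. S100a6, a calcium-binding protein of dividing and stromal cells, read 8.35, 8.80 and 8.51 in leukemia and 12.70, 12.03 and 12.97 in GFP-positive colonies. GFP-negative colonies read 12.98, 11.93 and 8.70 and iPS cells 11.80, 11.73 and 11.72. Only GFP-negative replicate 3 among the colony and iPS arrays lay within the leukemia range. The differences from leukemia were 4.01 ± 0.82 (16.2-fold, limma adjusted p = 0.00557) in GFP-positive colonies, 2.65 ± 0.82 (adjusted p = 0.044) in GFP-negative colonies and 3.20 ± 0.82 (adjusted p = 0.0164) in iPS cells. The GFP-negative call rests on groups that overlap. It was lost without any 1 leukemia array, or GFP-negative replicate 1 or 2 (adjusted p up to 0.133, differences of at least 1.76). The iPS call was lost without leukemia replicate 1 or 3 or iPS replicate 1 or 3 (up to 0.056).

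S100a10 is the annexin A2 partner. It read 10.11, 10.27 and 10.09 in leukemia, 12.23, 11.90 and 12.99 in GFP-positive colonies, 12.39, 11.63 and 11.05 in GFP-negative colonies and 11.61, 11.62 and 11.58 in iPS cells. Every array of the other groups lay above the leukemia arrays. The differences from leukemia were 2.22 ± 0.32 (4.65-fold, limma adjusted p = 7e-04), 1.53 ± 0.32 (2.89-fold, adjusted p = 0.00651) and 1.45 ± 0.32 (2.72-fold, adjusted p = 0.0078) in the same order. These 3 calls held whichever array was left out.

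S100a11, which is cross-linked into envelopes, read 9.83, 9.98 and 9.59 in leukemia, 10.29, 10.29 and 10.55 in GFP-positive colonies, 10.47, 10.89 and 10.36 in GFP-negative colonies and 10.19, 10.27 and 10.46 in iPS cells. All arrays of the other groups lay above leukemia by a small margin. The differences were 0.58 ± 0.16 (limma adjusted p = 0.0268), 0.77 ± 0.16 (adjusted p = 0.00622) and 0.50 ± 0.16 (adjusted p = 0.0438). The first was lost without leukemia replicate 1 or 3 or GFP-positive replicate 3 (up to 0.108), and the last without leukemia replicate 1 or 3 or any iPS array (up to 0.162). The pseudogene S100a11-ps read 7.74, 7.35 and 6.81 in leukemia, 8.96, 8.31 and 7.87 in GFP-positive colonies, 8.79, 8.47 and 7.74 in GFP-negative colonies and 7.57, 7.71 and 7.81 in iPS cells. Its GFP-positive difference was 1.08 ± 0.33 (adjusted p = 0.0415), lost without leukemia replicate 2 or 3 or GFP-positive replicate 1 or 2 (up to 0.154). It resembles S100a11 in sequence by descent, so its probe set may read S100a11 transcripts, which was not tested.

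S100a1, known from muscle, read 5.70, 5.45 and 5.74 in leukemia and 8.03, 8.06 and 9.30 in GFP-positive colonies. GFP-negative colonies read 9.02, 7.33 and 6.62 and iPS cells 6.62, 6.53 and 6.44. Leukemia was below every other array. The differences from leukemia were 2.83 ± 0.52 (7.12-fold, limma adjusted p = 0.00293) in GFP-positive and 2.03 ± 0.52 (4.08-fold, adjusted p = 0.0184) in GFP-negative colonies. The GFP-negative call was lost without any 1 leukemia array (up to 0.0661). The iPS cells were lower than GFP-positive colonies by -1.93 ± 0.52 (adjusted p = 0.0419), and their difference of 0.90 ± 0.52 from leukemia was not called (adjusted p = 0.259).

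S100a14 and S100a16, S100 genes of epithelia, followed the envelope pattern more closely. S100a16 read 5.66, 5.57 and 5.58 in leukemia, 8.01, 7.79 and 8.46 in GFP-positive colonies, 8.76, 6.39 and 5.49 in GFP-negative colonies and 5.96, 6.15 and 5.88 in iPS cells. S100a14 read 6.11, 5.92 and 5.80, then 8.44, 7.09 and 9.05, then 8.82, 7.15 and 5.82, then 6.19, 6.26 and 6.52 in the same order of groups. In both, GFP-negative replicate 1 lay at the GFP-positive level and replicate 3 at the leukemia level. The GFP-positive differences from leukemia were 2.49 ± 0.62 for S100a16 (5.61-fold, limma adjusted p = 0.0159) and 2.25 ± 0.65 for S100a14 (4.74-fold, adjusted p = 0.0324). S100a16 lost its call without leukemia replicate 2 or 3 (up to 0.0521), and S100a14 without any 1 leukemia array, GFP-positive replicate 1 or GFP-positive replicate 3 (up to 0.0991).

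**Figure D4:**
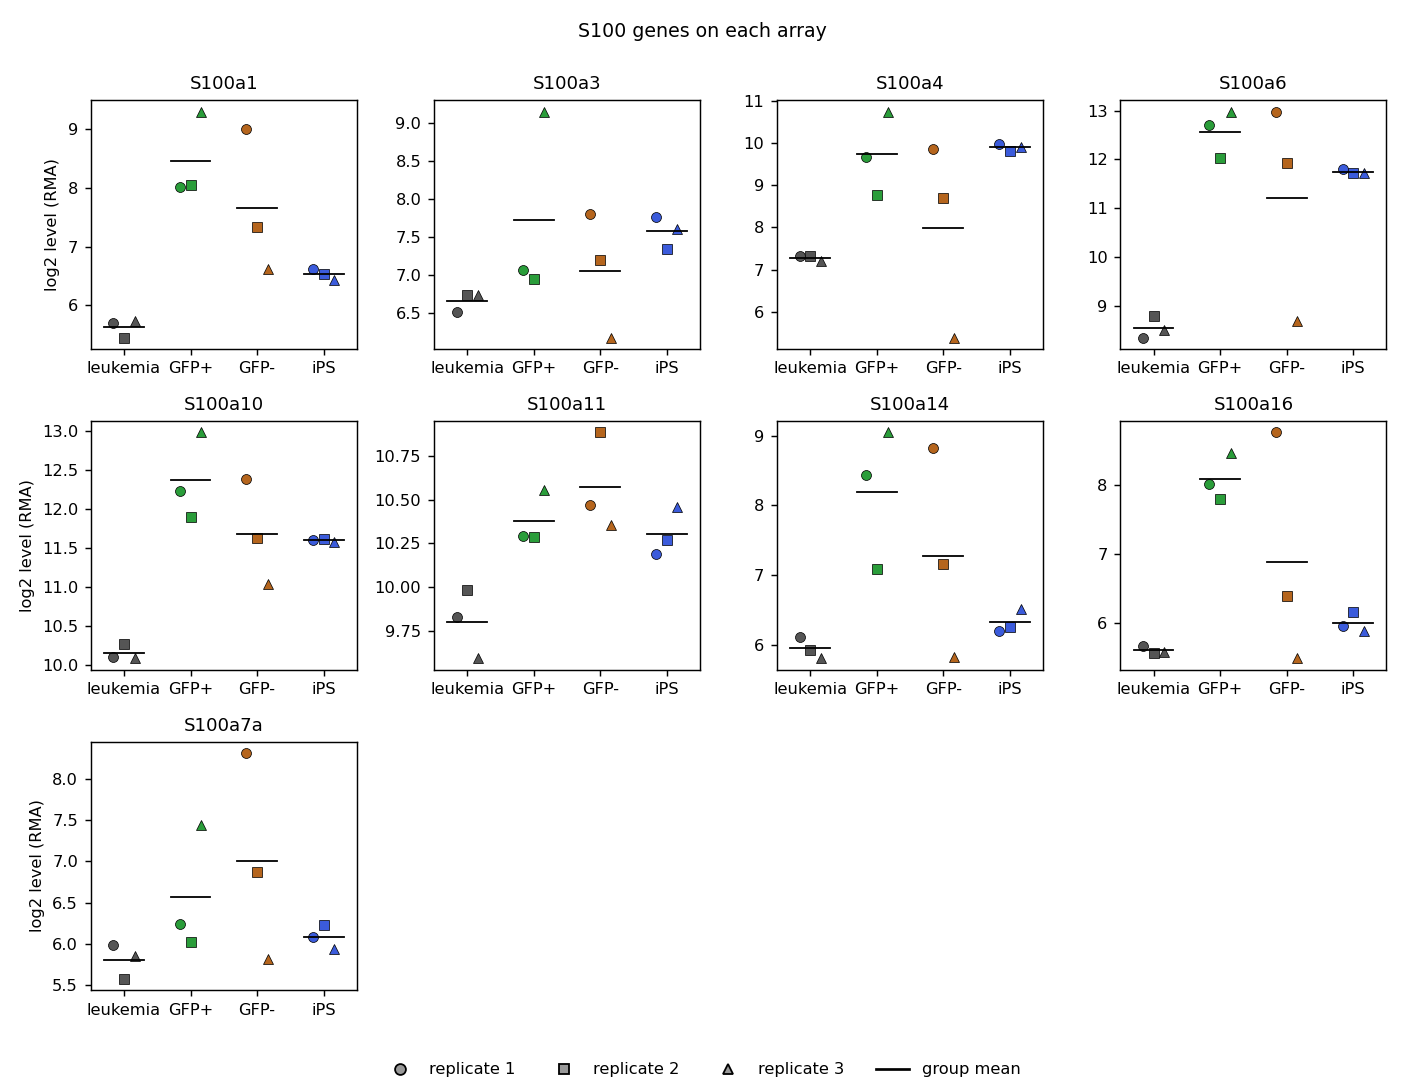
Log2 RMA level (vertical axis, its range set for each gene) of 9 S100 genes on each array, with symbols for replicates and a line for the group mean. All iPS arrays are above all leukemia arrays in every panel but that of S100a7a, for S100a14 by a small margin. GFP-negative replicate 3 is the lowest array of its group in every panel.

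S100a4, a gene of fibroblasts and motile cells, read 7.32, 7.31 and 7.21 in leukemia, 9.66, 8.78 and 10.74 in GFP-positive colonies and 9.98, 9.81 and 9.91 in iPS cells. Its GFP-negative arrays read 9.86, 8.69 and 5.39, the last below every leukemia array. No iPS array overlapped leukemia, yet the difference of 2.61 ± 0.91 was not called (limma adjusted p = 0.0599). The fit takes 1 spread from all 4 groups, and the SD of S100a4 was 0.09 in iPS cells and 2.32 in GFP-negative colonies. In a fit of the leukemia and iPS arrays alone it was 2.61 ± 0.08 (adjusted p = 3.04e-08). The GFP-positive difference from leukemia of 2.44 ± 0.91 (adjusted p = 0.0816) was likewise called in the fit of those 6 arrays (adjusted p = 0.0104). The GFP-negative difference of 0.70 ± 0.91 turned to -0.25 without GFP-negative replicate 1, neither of them called. The fibroblast marker mean was 7.59 to 7.74 in iPS cells and 5.67 to 6.61 on all colony and leukemia arrays; its part in the S100a4 level was not tested.

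S100a3, known from the hair cuticle, read 6.51, 6.73 and 6.73 in leukemia, 7.07, 6.94 and 9.15 in GFP-positive colonies, 7.81, 7.19 and 6.18 in GFP-negative colonies and 7.76, 7.35 and 7.61 in iPS cells. S100a7a, a member of the psoriasin group, read 5.98, 5.57 and 5.85, then 6.24, 6.03 and 7.44, then 8.32, 6.88 and 5.82, then 6.09, 6.22 and 5.94. S100a3 was highest on GFP-positive replicate 3. S100a7a was highest on GFP-negative replicate 1 and next highest on GFP-positive replicate 3. Neither was called in any comparison (limma adjusted p = 0.207 and 0.363 for GFP-positive colonies against leukemia). The GFP-positive difference of S100a3 from leukemia was 1.06, and 0.35 without replicate 3 (adjusted p = 0.578). The difference of S100a7a was 0.77 in GFP-positive colonies, and 0.33 without replicate 3 (adjusted p = 0.727). In GFP-negative colonies it was 1.20 (adjusted p = 0.149), and 0.55 without replicate 1 (adjusted p = 0.37). With both of these arrays left out, S100a3 was called higher in iPS cells than in leukemia (0.91 ± 0.23, adjusted p = 0.0094).

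The other 33 members were neither called in any comparison nor had an SD over 1 in a colony group; Sprr2e, Flg and the Lce1m probe set of the rule are among them. They ranged from 2.73 to 9.24 over all arrays. Their group means differed by 0.09 to 1.12, with a median of 0.35, and the smallest adjusted p among them was 0.0754 (limma). They were 4 S100, 9 SPRR, 15 LCE and 5 fused S100-type genes.

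GFP-negative colonies had 4 members higher than leukemia, all of them S100 genes: S100a1, S100a6, S100a10 and S100a11. No member was lower, against 9.02% of all genes called higher and 12% called lower in limma. None of the 32 SPRR, LCE, Ivl and Lor members passed. The count rests on replicate 3. Without it, 13 members were called, all of them higher, where 9.56% of all genes were called higher. Among them were Sprr1a, Sprr2d, Sprr2b, S100a14 and S100a16. Without replicate 1 or 2, 3 and 4 members were called, where 13% and 7.54% of all genes were called higher. The iPS cells also had 4 members higher than leukemia, S100a6, S100a10, S100a11 and Lor, and none lower, where 12.4% of all genes were called higher and 11.9% lower. All comparisons with leukemia share its 3 arrays.

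**Figure D5:**
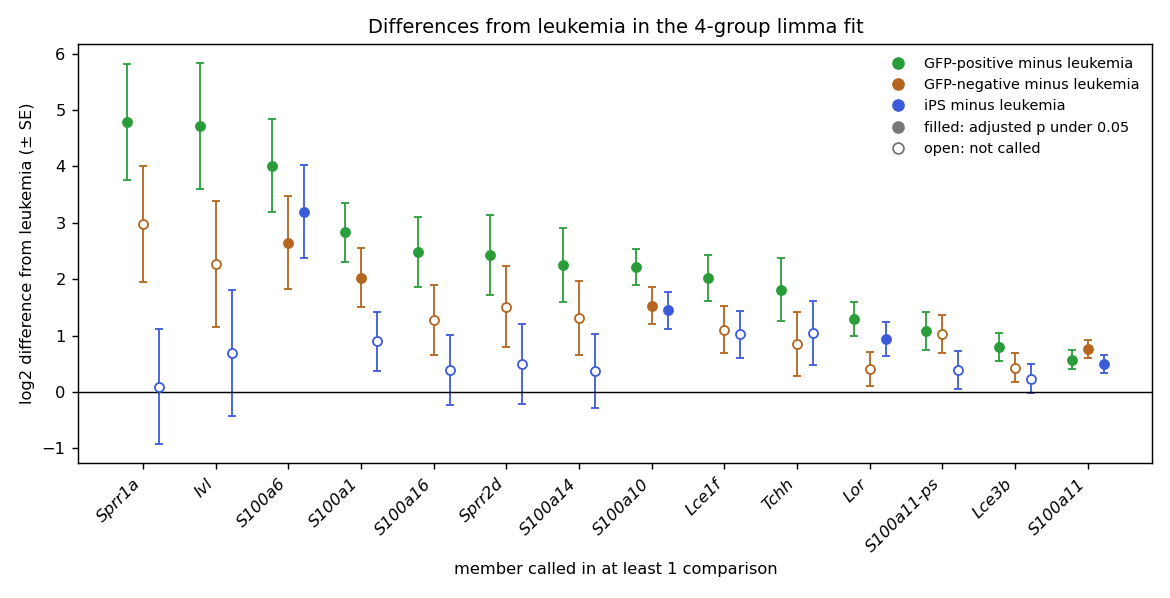
Log2 difference from leukemia (vertical axis, ± SE of the limma fit) for the 14 members called in at least 1 comparison, in both colony groups and in iPS cells; filled points are called. Sprr1a and Ivl reach 4.79 and 4.71 in GFP-positive colonies and lie at 0.10 and 0.70 in iPS cells. S100a6, S100a10 and S100a11 are filled in all 3 groups.

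From GFP-positive colonies to iPS cells, 3 members fell: Sprr1a, Ivl and S100a1. Of all genes, 4.23% were called lower and 6.15% higher in limma, so that higher calls were 59.2% of all calls (46.0% with cyclic loess). Each of these calls was lost when some single array was left out: with GFP-positive replicate 1 or 3, or any iPS array, left out, no member was called. The fit of the 6 GFP-positive and iPS arrays alone called 8 members lower, adding S100a14, S100a16, Sprr2b, Sprr2d and Sprr2g, where 6.2% of all genes were called lower. Between GFP-negative and iPS arrays no member was called, where 2.94% of all genes were higher and 1.32% lower (69.0% of calls higher, and 58.8% with cyclic loess), and 3 members had an unadjusted p under 0.05.

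Between the colony groups no member passed, nor did any of the 22180 genes (0% called in limma), with 1 member and 1413 genes at an unadjusted p under 0.05. The smallest adjusted p of a member was 0.731. Without GFP-negative replicate 1, 3.46% of all genes were called lower in GFP-negative colonies, and 5 of 52 members were: Ivl by -4.19 ± 0.34 (adjusted p = 0.000508), S100a16 by -2.15 ± 0.25 (adjusted p = 0.00336), Sprr2d by -1.97 ± 0.31 (adjusted p = 0.0125), Sprr1a by -3.21 ± 0.62 (adjusted p = 0.024) and S100a1 by -1.48 ± 0.35 (adjusted p = 0.0442). Leaving out GFP-positive replicate 2, the GFP-positive array on which Lce3a was low, gave 1 call, Lce3a. It was lower in GFP-negative colonies, as were 0.00902% of all genes.

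The colony arrays spread widely on these genes. An SD over 1 within a colony group was seen for 13 of 52 members (25%), against 8.24% of all genes. Among the 14 members higher in GFP-positive colonies, GFP-negative replicate 1 was the highest of its group for 13 and replicate 3 the lowest for 12. Over all 2129 genes called higher in GFP-positive colonies these shares were 63.4% and 52.5%, so the order was not confined to the members. GFP-positive replicate 3 was the highest of its group for 10 of the 14, against 42.8% of the 2129 genes.

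Several keratinocyte markers moved with the members, and others did not. The mean of 8 basal keratinocyte markers was 5.17 to 5.31 in leukemia, 9.07 to 9.76 in GFP-positive colonies, and 9.40, 6.75 and 5.73 on GFP-negative replicates 1 to 3. In iPS cells it was 5.98 to 6.01. Of these 8, 5 were called higher in GFP-positive colonies than in leukemia, against 9.6% of all genes. In GFP-negative colonies 1 was, against 9.02% of all genes. Krt15 stayed between 4.63 and 5.61 and Col17a1 between 5.87 and 6.49 on all 12 arrays. Krt17 read 9.23, 9.26 and 9.10 in iPS cells, against at most 5.45 in leukemia. Krt14, the basal keratin, read 12.07, 12.36 and 12.93 in GFP-positive colonies and 12.84, 9.52 and 5.54 in GFP-negative ones, against at most 5.73 in leukemia and 6.68 in iPS cells. Krt1, the keratin of the cornifying layers, stayed between 5.22 and 5.98 on all 12 arrays. Trp63, the basal keratinocyte regulator, read 5.21, 5.08 and 5.09 in leukemia, 6.04, 6.01 and 5.5 in GFP-positive colonies, 6.09, 5.02 and 5.15 in GFP-negative colonies and 4.92, 5.04 and 5.13 in iPS cells. Its GFP-positive arrays lay above leukemia, and the difference of 0.72 ± 0.25 was not called (limma adjusted p = 0.0661); without GFP-positive replicate 3 it was 0.90 ± 0.26 and called (adjusted p = 0.0379). Of 6 suprabasal markers, Dsg1a and Krtdap were higher in GFP-positive colonies (Krtdap not without replicate 3, limma adjusted p = 0.0737). All 5 simple epithelium markers were higher there, both counts again beside 9.6% of all genes. In GFP-negative colonies no suprabasal marker was called higher and 1 was lower, while all 5 simple epithelium markers were higher. Of all genes, 9.02% were called higher there and 12% lower. Krtdap was highest in iPS cells, at 6.70 to 7.01. Krt10 read 7.25, 7.30 and 7.01 in leukemia and 6.87, 6.67 and 6.08 in GFP-negative colonies. The part of these cell types in the member levels was not tested.

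The other proteins of the cornified envelope were followed as a list of 25 genes. In GFP-positive colonies 13 (52%) were higher than in leukemia, against 9.6% of all genes, and none lower (median log2 difference 1.92). Without GFP-positive replicate 3, 11 were higher and 1 lower, where 9.56% of all genes were higher and 11.9% lower. The largest differences were those of Tgm1, the envelope cross-linking transglutaminase (4.36 ± 0.64, limma adjusted p = 0.000754), Klk7, a protease of skin shedding (4.08 ± 1.01, adjusted p = 0.0146), and desmoplakin, Dsp (3.64 ± 0.91, adjusted p = 0.0156). In GFP-negative colonies 3 (12%) were higher, near the 9.02% of all genes, and 1 lower, with Tgm1 at 3.41 ± 0.64 (adjusted p = 0.00348), the protease inhibitor Cstb at 2.74 ± 0.31 (adjusted p = 0.000127) and the protease Asprv1 at -2.28 ± 0.42 (adjusted p = 0.00301). In iPS cells 5 (20%) were higher, against 12.4% of all genes, and 1 lower, with Tgm1 at 4.0 ± 0.64 (adjusted p = 0.00112). Tgm1 was thus higher than leukemia in iPS cells, where the envelope precursors Ivl and Sprr1a were at 0.70 and 0.10 above leukemia and not called. The envelope proteins Lor and S100a11 were called higher there, both calls being lost when some single arrays were left out. From GFP-positive colonies to iPS cells 7 partners (28%) were lower, against 4.23% of all genes, Klk7 (-4.18 ± 1.01, adjusted p = 0.0288) and Dsp (-4.11 ± 0.91, adjusted p = 0.0219) by most. Without GFP-positive replicate 3, Cstb alone of the 25 was lower (-1.61 ± 0.35, adjusted p = 0.0304), where 1.9% of all genes were, and Klk7 and Dsp were not called (adjusted p = 0.0841 and 0.0576). Between the colony groups no partner was called, and with GFP-negative replicate 1 left out 7 were lower in the GFP-negative arrays, where 3.46% of all genes were. Between GFP-negative and iPS arrays only Krtdap differed, higher by 1.42 ± 0.28 (adjusted p = 0.0215).

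Of 23 listed regulators of keratinocyte differentiation, 20 were measured. In GFP-positive colonies 7 (35%) were higher and 1 (5%) lower than in leukemia, against 9.6% and 12.3% of all genes. Without GFP-positive replicate 3 these were 6 and 2, with Fos now lower, where 9.56% and 11.9% of all genes were called higher and lower. The epithelial ETS factors Elf3 (3.35 ± 0.20, limma adjusted p = 1.32e-06) and Ehf (3.35 ± 0.76, adjusted p = 0.00945) and the grainyhead factor Grhl3 (2.47 ± 0.29, adjusted p = 0.000165) rose most. Gata3, a T cell factor also used in skin, fell by 1.39 (adjusted p = 0.000531). In GFP-negative colonies 6 (30%) were higher and 2 (10%) lower, against 9.02% and 12% of all genes, Elf3 by 3.17 ± 0.20 (adjusted p = 1.88e-06) and Grhl3 by 1.91 ± 0.29 (adjusted p = 0.000878), and the AP-1 subunit Fos lower by -1.72 ± 0.43 (adjusted p = 0.016). In iPS cells 3 (15%) were higher, near the 12.4% of all genes, and 4 (20%) lower, against 11.9%, with the AP-1 subunits Junb (-2.50 ± 0.60, adjusted p = 0.0118) and Fos (-2.40 ± 0.43, adjusted p = 0.00216) and with Elf3 (1.94 ± 0.20, adjusted p = 6.56e-05) changing most. From GFP-positive colonies to iPS cells 5 regulators (25%) fell, against 4.23% of all genes, Ehf (-2.89 ± 0.76, adjusted p = 0.0382), Fos (-1.77 ± 0.43, adjusted p = 0.0298) and Zfp750 (-1.54 ± 0.25, adjusted p = 0.00665) by most. Without GFP-positive replicate 3, 3 were lower, Grhl3, Zfp750 and Elf3, where 1.9% of all genes were. Ehf and Fos were not called in that limma fit (adjusted p = 0.106 and 0.0535). Between the colony groups no regulator was called, and with GFP-negative replicate 1 left out 5 were lower in the GFP-negative arrays, where 3.46% of all genes were. Between GFP-negative and iPS arrays, Klf4 was higher in iPS cells by 1.45 ± 0.31 (adjusted p = 0.0272, and 0.054 without GFP-negative replicate 1) and Elf3 lower by -1.22 ± 0.20 (adjusted p = 0.0105). Klf4 is one of the factors in the reprogramming cassette, whose transcripts its probe set may read.

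Of 10 listed neighbours inside the complex but outside the family, 1 was called higher in GFP-positive colonies than in leukemia and 2 lower. Of all genes, 9.6% were called higher and 12.3% lower. The median log2 difference of the neighbours was 0.26. S100a8 and S100a9, the calprotectin subunits of neutrophils that the rule leaves out, averaged 10.29 and 10.58 in leukemia, 4.99 and 6.18 in GFP-positive colonies, 4.29 and 5.51 in GFP-negative colonies and 4.84 and 5.41 in iPS cells. Both fell from leukemia to GFP-positive colonies, by 5.29 and 4.39 on the log2 scale (limma adjusted p = 1.8e-06 and 9.73e-06). The neutrophil marker mean, which includes them, was 9.56 to 9.62 in leukemia and at most 5.89 on the colony arrays. Pglyrp3, an antibacterial peptidoglycan-binding protein, rose by 2.67 ± 0.83 in GFP-positive colonies (adjusted p = 0.0416). Its relative Pglyrp4 read 4.68, 4.82 and 4.66 in leukemia, 5.61, 5.87 and 5.59 in GFP-positive colonies and 6.85, 4.55 and 4.06 in GFP-negative colonies. Crct1, a cysteine-rich protein gene of the complex, read 5.14, 4.90 and 4.75, then 6.07, 5.84 and 5.85, then 7.13, 5.37 and 4.42 in the same groups. In both, the GFP-positive arrays and GFP-negative replicate 1 lay above leukemia, and the GFP-positive differences of 0.97 ± 0.55 and 0.99 ± 0.51 were not called (adjusted p = 0.257 and 0.206). They were picked after their values were seen. Among the 10 measured genes on the S100a1 side of the complex none was higher and 4 were lower in GFP-positive colonies, and among the 10 on the S100a10 side 1 was higher and 1 lower.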

How the data were processed

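RNA of 12 samples was hybridised to Affymetrix arrays, 3 per group. The values deposited by the authors are log2 levels, 1 per probe set, made with RMA, per the submitters' processing notes; the version and any filter were not stated in the sources used here. RMA includes quantile normalization, which would remove a shift of most genes. Array medians were 5.76 to 5.82, with 0 missing values. No detection values were used, so signal over background is unknown and precision is limited by the number of arrays.

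Of 41345 probe sets, 23521 had 1 symbol and 1814 several in the platform annotation. The brightest probe set stood for each of 22180 genes. With limma 3.58.1 (R 4.3.3), group means were estimated from all 12 arrays together, and 6 comparisons were adjusted by Benjamini-Hochberg. The pooled spread widens errors between groups that are tight for a gene and narrows them for groups that are spread. Adjusted p-values of colonies against leukemia can therefore be too small for some genes and too large for others. Fits of the 6 arrays compared were the alternative. Against leukemia they called 2 members in place of 4 in GFP-negative colonies and 15 in place of 14 in GFP-positive colonies. Members called in any comparison, or with an SD over 1 in a colony group, were described array by array, and of other lists up to 3 called genes per comparison. The steps were tested on simulated data. Start regions came from RefSeq (GRCm38.p6) and were aligned with Biopython 1.88. No label says whether replicate numbers pair the arrays, and they were fitted unpaired. Deviations of arrays with the same number correlated at -0.38 to 0.32, which with so few arrays cannot decide it. The members and lists were chosen with earlier results of these data known. Alternatives covered the spread estimate, array weights, cyclic loess, probe sets per gene, dim genes, arrays fitted, the replicate block and each array left out.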

Additional observations from a re-analysis of the deposited data

How the results depend on the processing

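Counts of members called moved with the arrays fitted. With array weights, whose fit stopped before convergence, 21, 13, 15, 6, 16 and 7 members were called in GFP-positive colonies against leukemia, GFP-negative colonies against leukemia, iPS cells against leukemia, GFP-negative against GFP-positive colonies, iPS cells against GFP-positive and iPS cells against GFP-negative colonies. Over all genes, that fit called 17.4%, 19.1%, 23.7%, 1.83%, 17.6% and 11.2% higher in the same order. It called 19.5%, 20%, 23.8%, 4.1%, 13.9% and 8.59% lower. With only the 6 arrays compared, these were 15 in GFP-positive colonies against leukemia, 2 in GFP-negative colonies against leukemia, 19 in iPS cells against leukemia and 8 in iPS cells against GFP-positive colonies. Over all genes, higher calls there were 10.6%, 6.15%, 24.5% and 6.54%, and lower calls 12.1%, 8.73%, 22.9% and 6.2%. With both colony arrays that stand apart left out (GFP-positive 3, GFP-negative 1), the first of the 6 comparisons gave 16 and the last 4 gave 12, 6, 9 and 3. Over all genes, higher calls were then 15.7% in the first and 18.9%, 1.23%, 11.2% and 5.85% in the last 4. Lower calls were 16.9%, 17.4%, 3.5%, 9.29% and 4.17%. In the fit of all probe sets, 2 members were called in iPS cells against leukemia and 1 against GFP-positive colonies. The latter was lower in iPS cells, as were 2.34% of all probe sets. Leaving out each array in turn gave 7 to 15 members in GFP-positive colonies against leukemia (9, 8 and 7 without leukemia replicate 1, 2 or 3, and 10, 15 and 10 without GFP-positive replicate 1, 2 or 3), 2 to 13 in GFP-negative colonies against leukemia, 1 to 3 in iPS cells against leukemia, 0 to 5 in GFP-negative against GFP-positive colonies, 0 to 5 in iPS cells against GFP-positive and 0 to 2 against GFP-negative colonies. Over all genes, these refits called 6.73% to 9.58% higher in GFP-positive colonies than in leukemia. For GFP-negative colonies against leukemia the share was 6.17% to 13%, and for iPS cells 8.92% to 9.17%. Between the colony groups it was 0% to 1.13% higher and 0% to 3.46% lower in GFP-negative colonies. For iPS cells against GFP-positive colonies it was 1.83% to 8.99% higher and 0.848% to 6.43% lower. Against GFP-negative colonies, 0.803% to 4.61% were higher and 0.329% to 3.3% lower in iPS cells. Of the calls in GFP-positive colonies against leukemia, Ivl, Lor, Lce1f, Sprr1a, S100a1, S100a6 and S100a10 held whichever array was left out. The S100a4 difference between GFP-negative colonies and leukemia ranged from -0.25, without GFP-negative replicate 1, to 1.99, without replicate 3, and was also -0.25 with both arrays that stand apart left out. With the replicate block, 12, 4, 3, 0, 2 and 0 members were called in the 6 comparisons, in place of 14, 4, 4, 0, 3 and 0. Over all genes, that fit called 9.34%, 8.67%, 11.8%, 0%, 5.14% and 2.3% higher in the same order. It called 11.4%, 11.1%, 11.2%, 0%, 3.49% and 1.03% lower. No label says that arrays sharing a replicate number are paired. Cyclic loess moved the share of higher calls over all genes from 43.9% to 52.6% in GFP-positive colonies against leukemia, from 59.2% to 46.0% in iPS cells against GFP-positive colonies and from 69.0% to 58.8% against GFP-negative colonies. The refits of the partner and regulator lists were chosen after seeing the data. The cause of these changes was not tested.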
